A study of Mus musculus with 6 samples.

Results

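The cytosolic ribosome is built from a 40S and a 60S subunit, and each ribosomal protein of those subunits is encoded by its own gene, in the mouse at sites on many chromosomes. The proteins are needed in nearly equal numbers, and their mRNAs are among the most abundant in resting lymphocytes. Many of these mRNAs begin with a C followed by a run of pyrimidines, the terminal oligopyrimidine (TOP) tract, through which the kinase mTOR controls their translation. The genes described here were chosen by name from the gene table of follicular B cells with and without myosin IIa: Rpl or Rps followed by a number, the P stalk genes and Rpsa, without the Rps6k kinases, and with a mean of at least 1 FPKM (fragment counts scaled to transcript length and to the size of the library) over both genotypes. Of 85 matching names, 82 were kept, out of 9866 genes in the table with a mean of at least 1 FPKM, and they lie on 19 chromosomes.

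The cells were follicular B cells, gated as B220+AA4.1-CD23+CD21lo, of C57BL/6 mice that carried the CD23Cre transgene together with either 1 or 2 floxed copies of Myh9, the gene of the myosin IIa heavy chain. There were 3 CD23Cre+Myh9wt/fl samples and 3 CD23Cre+Myh9fl/fl samples, called wt/fl and fl/fl here, and the comparison asks how the loss of myosin IIa altered expression in these cells. Cre was driven by the promoter of Fcer2a, which encodes CD23, so deletion is limited to the later B cell stages, and the wt/fl controls keep 1 intact Myh9 allele and express Cre as well. The labels state neither the age nor the sex of the mice. The table gives 1 pooled FPKM value per gene and genotype, with no value per mouse, so no difference below could be set against the spread between mice and none was tested. The number of reads behind each value is unknown. Ratios are log2 of fl/fl over wt/fl after 1 FPKM was added to both, so a positive ratio means higher in fl/fl.

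Myh9 itself stood at 50.6 FPKM in wt/fl against 21.1 FPKM in fl/fl, which is 41.7% of the wt/fl level, a value that includes reads outside the deleted exon. The 8 B cell markers summed to 5031 FPKM in wt/fl against 5324 FPKM in fl/fl, and 7 of them were higher in fl/fl. All 10 neutrophil markers were lower in fl/fl, with a sum of 378 FPKM in wt/fl against 66.8 FPKM in fl/fl. Most of that sum came from S100a9 (175 FPKM in wt/fl against 34.5 FPKM in fl/fl) and S100a8 (145 and 25.8 FPKM). The lowest of the 10, Elane and Mpo, were listed at 0 in fl/fl and at 0.119 and 0.0916 FPKM in wt/fl. The 3 erythroid markers in the table summed to 53.9 FPKM in wt/fl against 7.45 FPKM in fl/fl, the 4 macrophage markers to 82.8 and 53.1 FPKM, the 3 plasma cell markers to 8.77 and 2.65 FPKM, and the 6 T cell markers to 22.8 and 21.4 FPKM. In such bulk samples, fewer cells of a type and less RNA per cell cannot be told apart. The part of these other cells in the ribosomal protein values was not tested.

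Of the 82 genes, 76 encode ribosomal proteins with a known place in the ribosome, 30 in the 40S and 46 in the 60S subunit. The other members are the paralogs Rpl22l1, Rpl36al, Rps27l and Rpl7l1, the gene Rps19bp1, which encodes a protein that binds the ribosomal protein S19, and Rpl31-ps12, whose name is that of a pseudogene. Rpl34 shares its entry in the table with the pseudogene Rpl34-ps1. The 3 names that did not reach 1 FPKM were Rpl10l (0.143 FPKM in wt/fl against 0.0677 FPKM in fl/fl), Rpl3l (0.0344 FPKM in wt/fl against listed at 0 in fl/fl) and Rpl39l (listed at 0 in both). These are paralogs of Rpl10, Rpl3 and Rpl39. The member nearest above the limit was Rpl7l1, with 17.9 FPKM in wt/fl against 17.5 FPKM in fl/fl, so no member lay close to it. Rps27 was not analysed here.

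Together the 82 genes held 33.5% (wt/fl) and 32.9% (fl/fl) of all FPKM. Their median level was 1925 FPKM in wt/fl against 1848 FPKM in fl/fl, beside medians of 13.9 and 14.0 FPKM over all compared genes. In each genotype 62 of the 82 stood at 1000 FPKM or more and 3 stood under 100 FPKM. Among the 100 most highly expressed genes, 64 were members in wt/fl and 65 in fl/fl. The 40S genes held 41.7% of the members' FPKM in both genotypes.

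The highest member in both genotypes was Rps29, a small zinc-binding protein of the 40S head, with 8667 FPKM in wt/fl against 8375 FPKM in fl/fl. Rpl39, which lines the tunnel through which the new protein leaves the ribosome, had 6901 FPKM in wt/fl against 7210 FPKM in fl/fl, and Rpl41, the smallest protein of the ribosome, had 7143 and 6081 FPKM. These 3 genes changed places among themselves only in that Rpl41 stood above Rpl39 in wt/fl and below it in fl/fl. Rpl23a, a docking site at the tunnel exit, stood at 6063 FPKM in wt/fl against 5847 FPKM in fl/fl. Rpl32 had 6161 and 5731 FPKM and Rpl38 had 5809 and 5921 FPKM, both in the 60S subunit. Rps20, of the 40S head, had 5613 and 5227 FPKM. Rplp1, of the P stalk, had 5598 and 4889 FPKM. Rps4x, the X-linked S4 protein of the 40S body, had 4999 and 5389 FPKM, and Rpl13 had 5104 and 4755 FPKM. These 10 genes held 31.2% (wt/fl) and 30.4% (fl/fl) of the members' FPKM.

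**Figure D1:**
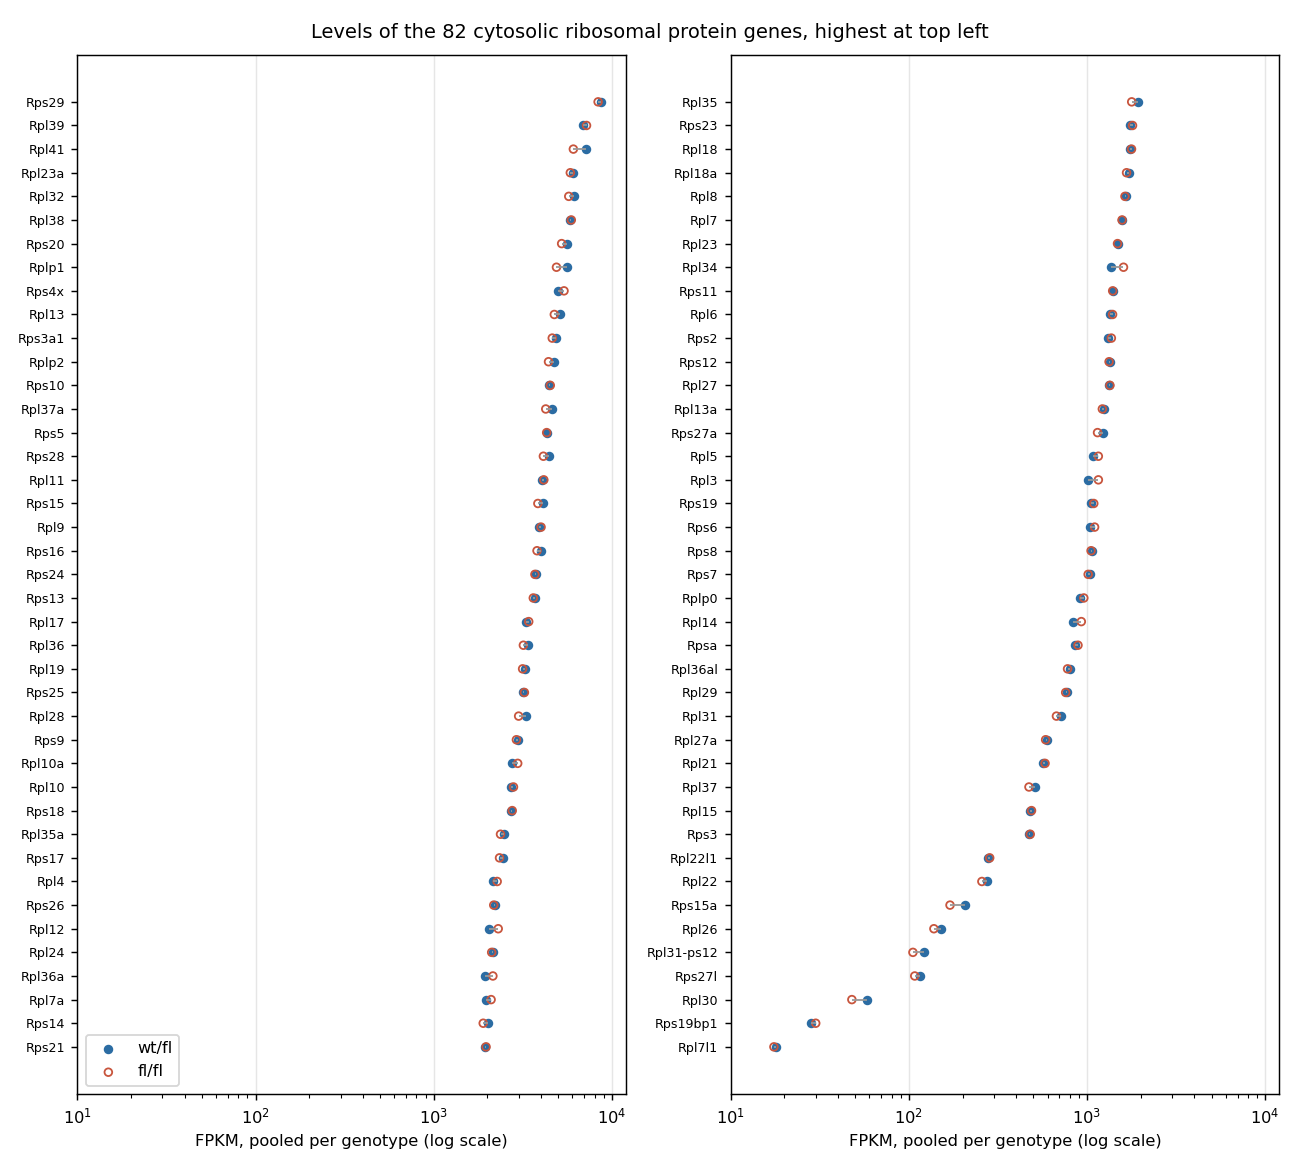
Pooled FPKM (log scale) of each of the 82 ribosomal protein genes in wt/fl (filled) and fl/fl (open) follicular B cells, ordered by mean level, with a line joining the genotypes. Most genes lie between 1000 FPKM and the 8667 FPKM of Rps29, and the open and filled points nearly coincide.

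The members were far from equal in level: the highest exceeded the lowest 484-fold in wt/fl and 480-fold in fl/fl. The order hardly differed between genotypes, with a Spearman correlation of 0.998 over the 82 genes. The points share the same libraries within a genotype and the same gene lengths, and the coefficient is a description. The rank of 73 genes moved by at most 2 places, and the largest move was 6 places.

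The start of the mRNA was examined in RefSeq promoters (GRCm38.p6), which cover 56 of the 76 genes with 66 annotated starts. A C at the start base followed by at least 4 pyrimidines was found at 12 of the 66 starts (18.2%), beside 2.47% of 32785 other promoters and 2.15% of the 9449 promoters of other compared genes. The tract that TOP mRNAs carry is shown for 6 of the 12 genes, in windows from 10 bases before to 20 bases from the annotated start, with the pyrimidine run from the start base in capitals. Rps6, Rplp2, Rpl14 and Rps15a are described below, Rpl38 has the highest level of the 12, and Rpl15, chosen after its values were seen, has the longest run, 13 bases.
Rpl38 (chr11:114668570-114668599, plus strand): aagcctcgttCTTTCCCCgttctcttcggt
Rplp2 (chr7:141447641-141447670, plus strand): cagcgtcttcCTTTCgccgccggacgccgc
Rps6 (chr4:86857348-86857377, minus strand): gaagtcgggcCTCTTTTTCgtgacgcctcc
Rpl14 (chr9:120571507-120571536, plus strand): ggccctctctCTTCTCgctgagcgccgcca
Rpl15 (chr14:18270967-18270996, minus strand): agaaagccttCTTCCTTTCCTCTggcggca
Rps15a (chr7:118116128-118116157, minus strand): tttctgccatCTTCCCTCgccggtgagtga
Those tracts belong to genes that span the range of levels, from 5809 FPKM for Rpl38 to 205 FPKM for Rps15a in wt/fl, and Rpl15 stood at 479 FPKM. The 12 genes with the tract had a median ratio of 0.017 and the 44 without it 0.005.

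Annotated starts can lie some bases from the true one. The letters CTTTC were therefore also looked for on the gene's strand from 30 bases before to 20 after the start. CTTTC is a different feature from the start tract. It occurs in the printed tracts of Rpl38, Rplp2 and Rpl15 but not in those of Rps6, Rpl14 and Rps15a. CTTTC was in 27.3% of the ribosomal protein promoters, 6.82% of all other promoters and 5.58% of those of other compared genes. Another 4 motifs were counted on both strands of the whole window, from 250 bases before to 50 after the start. CCGGAAG, which ETS family factors bind, was in 37.9% of the ribosomal protein promoters, 8.80% of all other promoters and 19.5% of those of other compared genes. GGGCGG, the GC box, was in 62.1%, 35.6% and 63.0%. AAGATGG, a YY1 motif, was in 15.2%, 6.32% and 7.71%. CACGTG, the E box that Myc and Max bind, was in 12.1%, 7.14% and 10.7%. The share with the start tract and with CCGGAAG was thus higher than among other compared genes, and that with the GC box was about the same, differences that were not tested. A match is a description of letters and not of a bound site.

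Differences between the genotypes were small for the ribosomal protein genes. Of the 82, 36 were higher and 46 lower in fl/fl, with a median ratio of -0.016 and quartiles of -0.086 and 0.043, beside a median of 0.003 over all compared genes, of which 50.5% were higher and 49.5% lower. None of the 82 passed 1.5-fold in either direction, beside 2.32% of all compared genes. At least 1.1-fold was reached by 11 members (13.4%), beside 40.2% of all compared genes. The same threshold was reached by 31.4% of the 539 other genes at 100 FPKM or more. In that set 60.1% were higher in fl/fl, beside 43.9% of the members, and 1.86% passed 1.5-fold. Those 539 genes had a median ratio of 0.041 and quartiles of -0.057 and 0.119. Their interquartile range was 0.175, beside 0.128 for the 82 ribosomal protein genes. The standard deviation over genes was 0.22 for the 539 and 0.097 for the 82. Outliers weigh on the former, since the ratios of the 539 reached down to -2.31. Among the larger gene lists described below, some had a narrower interquartile range than the members. These were initiation factors (0.093), elongation and TOP genes (0.098) and proteasome genes (0.109). It was wider for biogenesis factors (0.131), oxidative phosphorylation (0.133), mTOR and Myc regulators (0.16), RNA polymerase I (0.223) and mitochondrial ribosomal proteins (0.232).

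The ratios ran from -0.28 to 0.23. The 5 largest differences downwards were those of Rpl30, Rps15a, Rpl41, Rpl31-ps12 and Rplp1. Rpl30, a 60S protein, stood at 58.3 FPKM in wt/fl against 47.8 FPKM in fl/fl. Rps15a, of the 40S body, stood at 205 and 170 FPKM, a ratio of -0.27. The remaining ratios were -0.23 for Rpl41, -0.21 for Rpl31-ps12 (122 FPKM in wt/fl against 105 FPKM in fl/fl) and -0.20 for Rplp1. Rpl41 had the largest difference in absolute level, at -1061 FPKM for fl/fl minus wt/fl.

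The 5 largest differences upwards were those of Rpl34, Rpl3, Rpl12, Rpl14 and Rpl36a, all of the 60S subunit. That subunit has 46 of the 82 members, and Rpl30, Rpl41 and Rplp1, among the largest differences downwards, also belong to it. Rpl34, whose entry also names a pseudogene, had 1362 FPKM in wt/fl against 1602 FPKM in fl/fl, a ratio of 0.23. Rpl3, which reaches toward the peptidyl transferase centre, had 1012 and 1158 FPKM, a ratio of 0.19. Rpl12, at the base of the P stalk, had 2056 and 2302 FPKM, a ratio of 0.16. The ratios of Rpl14 (837 and 928 FPKM) and Rpl36a (1947 and 2149 FPKM) were 0.15 and 0.14.

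In the 40S subunit the head proteins, which contact the mRNA path and tRNAs, had 5 genes higher and 9 lower in fl/fl and a median ratio of -0.033 over 14 genes. The 16 genes of the body and platform had 7 higher and 9 lower, with a median of -0.010. Rps6, the substrate of the S6 kinases downstream of mTOR, had 1036 FPKM in wt/fl against 1103 FPKM in fl/fl, a ratio of 0.09. Rpsa, also known as the laminin receptor, had 861 and 889 FPKM. Rps19, a head protein whose human gene is mutated in Diamond-Blackfan anaemia, had 1055 and 1091 FPKM. Rps27a, which is made as a fusion with ubiquitin, had 1229 and 1145 FPKM, a ratio of -0.10. For these 4 proteins the levels in fl/fl lay within 10% of those in wt/fl.

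In the 60S subunit the P stalk recruits the elongation factors, with Rplp0 and Rpl12 at its base and Rplp1 and Rplp2 as its flexible arms. Both base genes were higher in fl/fl and both arm genes lower. The arm genes also have the shorter coding sequences, 342 bases for Rplp1 and 345 for Rplp2, beside 495 for Rpl12 and 951 for Rplp0. Over all members the ratio varied with coding length, as described below. Place and length cannot be told apart in these 4 genes. Rplp0 had 908 FPKM in wt/fl against 959 FPKM in fl/fl, a ratio of 0.08. Rplp2 had 4732 FPKM in wt/fl against 4411 FPKM in fl/fl, a ratio of -0.10. Both arm genes stood above both base genes in either genotype, by FPKM, which is a level per length.

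Rpl5 and Rpl11 form, with the 5S rRNA, the particle that binds Mdm2 when ribosome assembly is disturbed. Rpl5 had 1075 FPKM in wt/fl against 1157 FPKM in fl/fl, a ratio of 0.11, and Rpl11 had 4051 and 4151 FPKM, a ratio of 0.04. Among the genes tied to this particle, Mdm2, the ubiquitin ligase of p53, had 69.9 and 69.6 FPKM, Trp53, which encodes p53, had 102 and 110.0 FPKM, and Mdm4, the partner of Mdm2, had 112 and 92.3 FPKM, a ratio of -0.27. These 3 genes had a median ratio of -0.006. Of the 7 genes around the exit tunnel 2 were higher and 5 lower in fl/fl, and the median was -0.052. The other 33 genes of the 60S subunit had 16 higher and 17 lower, with a median of -0.008. Summed over each subunit, the ratio was -0.025 for the 40S and -0.026 for the 60S genes.

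**Figure D2:**
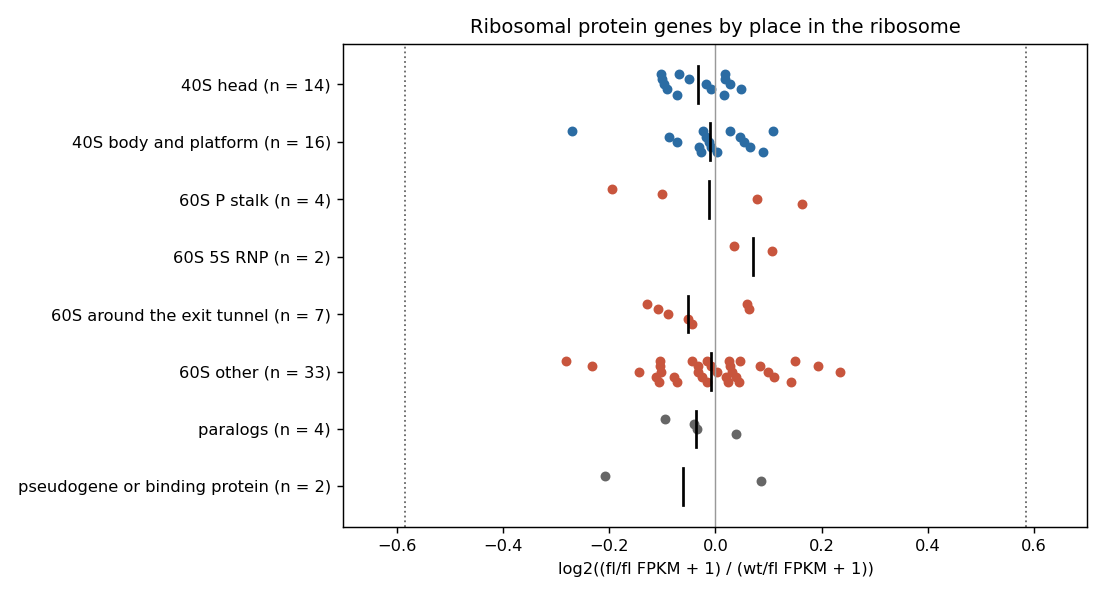
Log2 ratio of fl/fl to wt/fl for each ribosomal protein gene, by its place in the ribosome, with a bar at the median of each group and dotted lines at 1.5-fold. All points lie between -0.28 and 0.23, inside the dotted lines, and the group medians lie between -0.061 and 0.071.

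Rpl19 and Rps24 had more than 1 entry in the table, which holds an entry for each group of transcripts with the same coding sequence. Rpl19, a tunnel exit protein, had a main entry of 3255 FPKM in wt/fl against 3150 FPKM in fl/fl and a second entry listed at 0 in wt/fl and at 5.26 FPKM in fl/fl, which went the opposite way from the sum. Rps24, of the 40S body, had entries of 3687, 41.6 and 1.57 FPKM in wt/fl against 3674, 25.4 and 0.399 FPKM in fl/fl. Taken on their own, the second entry of Rpl19 and the middle entry of Rps24 passed 1.5-fold, while the sums did not. The smallest entry of Rps24 had a ratio of -0.88 and was left out of that count because its mean, 0.983 FPKM, was under the limit of 1 FPKM.

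Some ribosomal protein genes have a paralog. Rpl22 and Rpl22l1, whose coding sequences are 69.4% identical over the aligned bases, were expressed at nearly the same level in wt/fl, 276.0 FPKM for Rpl22 and 276.4 FPKM for Rpl22l1. In fl/fl Rpl22 had 257 FPKM and Rpl22l1 had 284 FPKM, so that the share of Rpl22l1 in the pair was 50.03% in wt/fl and 52.52% in fl/fl. Rpl36al had 799 FPKM in wt/fl against 777 FPKM in fl/fl beside Rpl36a, 29.1% and 26.6% of the pair. Rpl7l1 made up 1.128% and 1.099% of its pair with Rpl7, which had 1569 FPKM in wt/fl against 1572 FPKM in fl/fl. The coding sequences of Rpl7 and Rpl7l1 are 57.3% identical over the aligned bases. Whether a paralog takes the place of its partner in the ribosome was not tested for any pair. Rpl10 had 2714 and 2804 FPKM against paralog levels under 1 FPKM. Rps27l, the paralog of Rps27, had 115 FPKM in wt/fl against 108 FPKM in fl/fl.

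Rpl36a and Rpl36al, both of 318 coding bases and 87.7% identical, were set side by side, and the first 60 coding bases of each (GENCODE M21, GRCm38) are printed with the 11 unlike bases in capitals. The longest run that the whole coding sequences share is 24 bases. The length of the reads is not given in the sources used here, and the sharing of reads between the genes was not tested.
Rpl36a: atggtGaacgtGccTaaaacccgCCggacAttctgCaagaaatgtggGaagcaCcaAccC
Rpl36al: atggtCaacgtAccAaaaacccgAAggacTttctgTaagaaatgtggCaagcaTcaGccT
The ratios of Rpl36a and Rpl36al, 0.14 and -0.04, were of opposite sign.

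**Figure D3:**
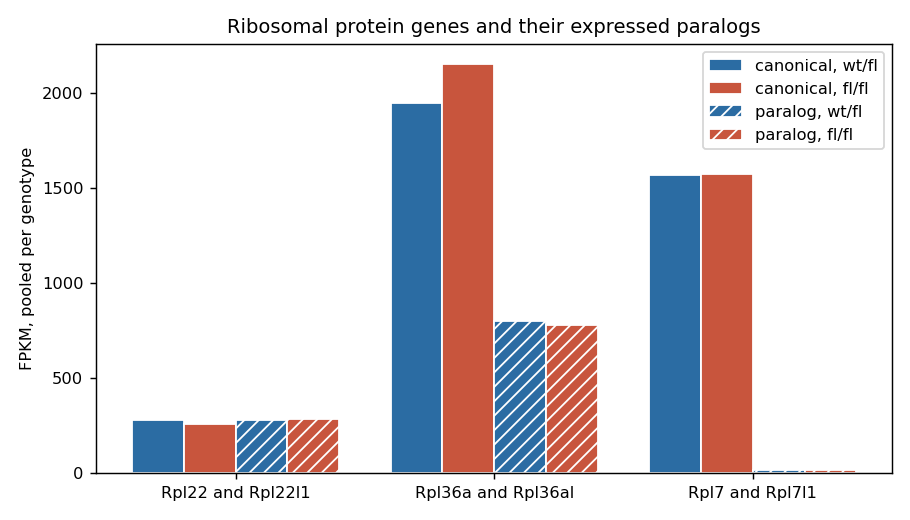
Pooled FPKM of 3 ribosomal protein genes (plain bars) and their expressed paralogs (hatched bars) in wt/fl and fl/fl follicular B cells. Rpl22 and Rpl22l1 stand at about the same height, Rpl36al stands below Rpl36a, and Rpl7l1 is barely visible beside Rpl7.

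Ribosomal protein genes have many processed pseudogenes, so copies of each coding sequence were counted among annotated transcripts, at 98% identity or more over 90% or more of the sequence. Of 81 members with a coding sequence 66 had at least 1 such copy, up to 16 for Rpl21. The median ratio was -0.023 for the 15 genes without a copy, -0.008 for the 39 with 1 to 3 copies and -0.017 for the 27 with 4 or more. Reads shared between a gene and its copies may be divided among them in a way the table does not show, and levels of members with copies are uncertain for that reason.

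The ratio varied with the length of the coding sequence, taken without the stop codon. Over the 81 members the Spearman correlation was 0.48 and the Pearson correlation of ratio and log2 length 0.45. All points come from the same pooled libraries, and both coefficients are descriptions. The Spearman coefficient was 0.41 within the 30 genes of the 40S subunit and 0.54 within the 46 of the 60S subunit, and 0.50 without the 2 members farthest from the median length. The 27 shortest genes (75 to 399 coding bases) had a median ratio of -0.078, with 7 higher and 20 lower in fl/fl. The 27 of middle length (405 to 564 bases) had a median of -0.017, with 12 higher and 15 lower. The 27 longest (576 to 1257 bases) had a median of 0.031, with 17 higher and 10 lower. Other compared genes in those length ranges had medians of 0.019, 0.022 and 0.019.

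The shortest coding sequence among the members is that of Rpl41, printed whole because its 75 bases set the lower end of the range.
Rpl41: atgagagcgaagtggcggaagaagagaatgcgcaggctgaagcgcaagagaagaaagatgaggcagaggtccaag
Rpl41 had a ratio of -0.23. Rpl39, with the next shortest coding sequence (153 bases), had a ratio of 0.06, so the shortest genes did not all lie on the same side.

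The same correlation was 0.10 over 76 mitochondrial ribosomal protein genes, -0.12 over 37 proteasome genes and 0.07 over 77 genes of oxidative phosphorylation. It was -0.09 over 9704 genes outside the members and 0.10 over the 388 of these at 100 FPKM or more with a coding length in the members' range. The ratios of the members had weaker correlations with GC content of the coding sequence (-0.10), mean level (-0.09) and number of copies (0.07). The part of length in how FPKM was estimated was not tested.

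**Figure D4:**
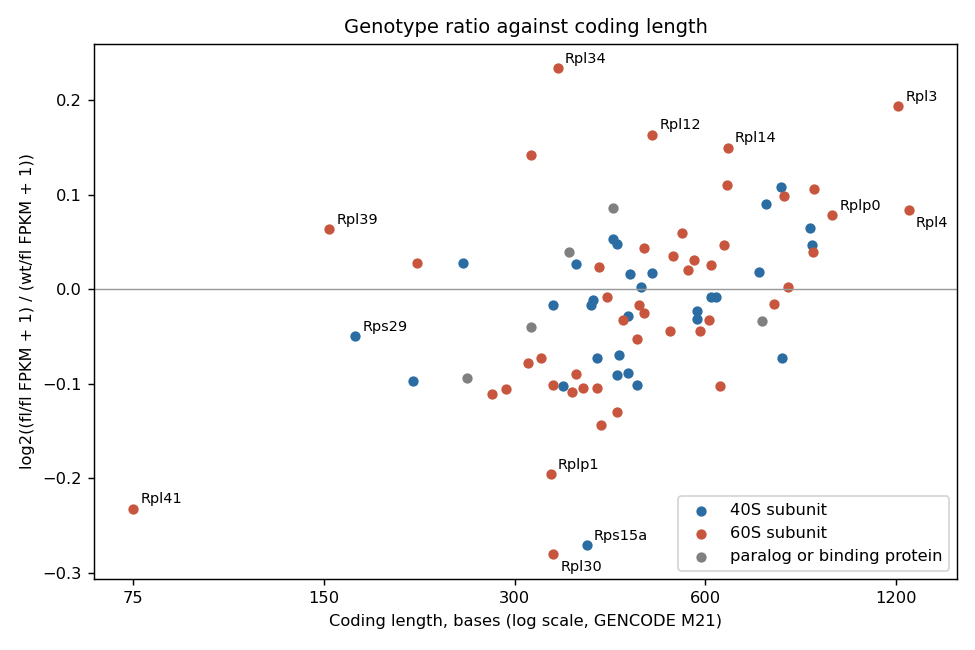
Log2 ratio of fl/fl to wt/fl for 81 ribosomal protein genes against coding length in bases (log scale), coloured by subunit. Points of the shorter genes lie mostly below 0 and those of the longest mostly above, with a Spearman correlation of 0.48.

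Among ribosomal proteins whose names do not match the rule, Fau, a fusion of a ubiquitin-like protein with S30, had 2037 FPKM in wt/fl against 1998 FPKM in fl/fl. Gnb2l1, the scaffold RACK1 of the 40S subunit, had 1746 and 1858 FPKM. Their ratios, -0.03 and 0.09, lay within the range of the members.

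The lists around the ribosome were described in the same way. Over all compared genes 50.5% were higher in fl/fl, and over the 539 other genes at 100 FPKM or more 60.1% were. Of the 22 genes listed as translation initiation factors 20 were higher in fl/fl, with a median ratio of 0.078. The most highly expressed of the 22 were the exceptions: Eif4a2, an RNA helicase, had 541 FPKM in wt/fl against 500 FPKM in fl/fl, and Eif1, which guards start codon choice, had 258 and 243 FPKM. Of 41 ribosome biogenesis factors 32 were higher, with a median of 0.090; Nop10, of the pseudouridylation particle, had 242 and 239 FPKM and Fbl, the rRNA methylase fibrillarin, had 144 and 162 FPKM. Of 19 elongation factors and other genes with a TOP tract 13 were higher, with a median of 0.040. That list also holds 7 initiation factors, and over the 29 initiation factors of both lists 24 were higher and 5 lower, with a median of 0.071. In the TOP list Eef1a1, which delivers tRNA to the ribosome, had 3469 and 3655 FPKM, and Tpt1 had 2293 and 2347 FPKM.

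The 13 genes of RNA polymerase I, which transcribes rRNA, and of its initiation factors had 7 higher and 6 lower, with a median of 0.069, or 0.114 when genes averaging under 5 FPKM were dropped. The most highly expressed of them were Polr1d, which is shared with RNA polymerase III (223 FPKM in wt/fl against 187 FPKM in fl/fl) and Znrd1 (81.7 and 81.4 FPKM). The 22 regulators of ribosome synthesis in the mTOR and Myc pathways had 10 higher and 12 lower, with a median of -0.015. Max, the partner of Myc, had 92.8 and 89.1 FPKM, and Pdcd4, an inhibitor of Eif4a, had 81.9 and 75.7 FPKM. No gene of these 5 lists passed 1.5-fold, and the median over all compared genes was 0.003.

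Of 76 mitochondrial ribosomal protein genes 53 were higher in fl/fl, with a median of 0.098 and a standard deviation of 0.17. Mrpl52 had 202 FPKM in wt/fl against 211 FPKM in fl/fl and Mrps21 had 195 and 179 FPKM. Of 37 proteasome genes 29 were higher, with a median of 0.067, among them the immunoproteasome subunits Psmb9 (237 and 254.6 FPKM) and Psmb8 (173 and 207 FPKM). Of 77 oxidative phosphorylation genes 51 were higher, with a median of 0.053. Atp5e had 657 and 656 FPKM and Atp5b had 608 and 668 FPKM, both subunits of the ATP synthase, and 1 gene of the list passed 1.5-fold, Cox7a1, at 0.410 FPKM in wt/fl against 1.72 FPKM in fl/fl. Except for the mTOR and Myc regulators and the 3 genes of the Mdm2 and p53 group, each of these lists had a median above 0, whereas the median of the ribosomal protein genes was below it. The 539 other genes at 100 FPKM or more also had a median above 0, at 0.041, with 60.1% higher in fl/fl. That lies near the medians of the TOP list (0.040) and of oxidative phosphorylation (0.053). These are differences between sets of genes in 1 pair of pooled values, and they were not tested.

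**Figure D5:**
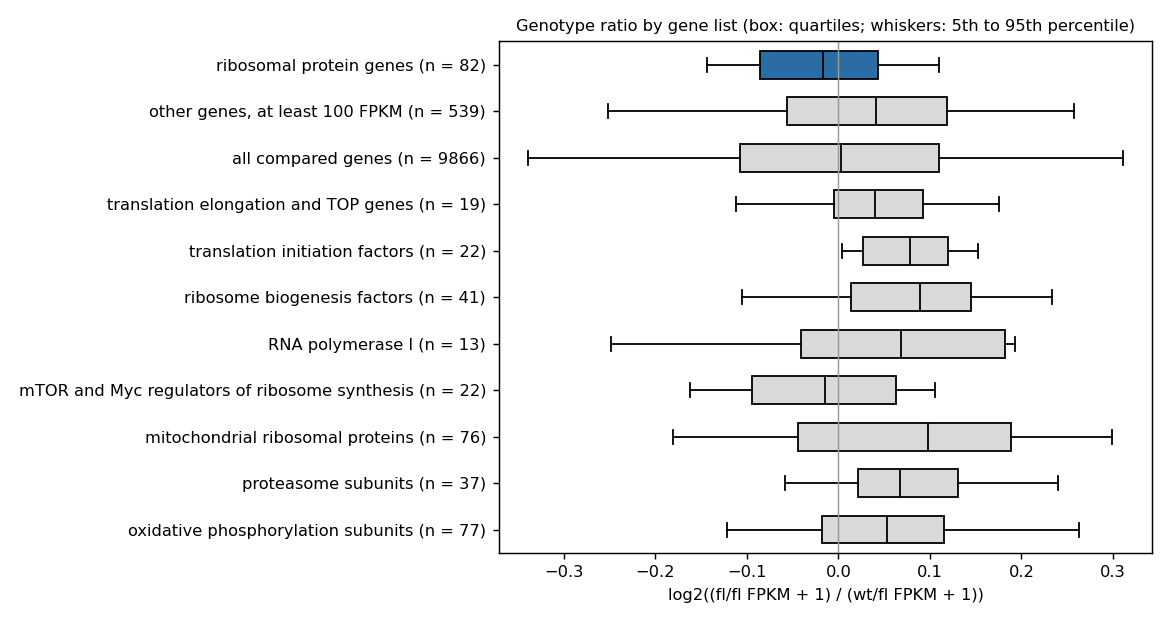
Log2 ratio of fl/fl to wt/fl for the 82 ribosomal protein genes (blue) and for other genes and gene lists (grey), with boxes from the lower to the upper quartile, a line at the median and whiskers at the 5th and 95th percentiles of genes. The ribosomal protein genes have a median of -0.016, below those of the initiation factors (0.078), biogenesis factors (0.090) and mitochondrial ribosomal proteins (0.098). Other genes at 100 FPKM or more have a median of 0.041.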

How the data were processed

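RNA of sorted follicular B cells was isolated with TriZol and RNeasy, amplified with the Ovation system and made into libraries with TruSeq Nano DNA. The submitters' processing notes name Bowtie, TopHat and Cufflinks without versions. They also name mm10 and GRCm38, but the positions in the deposited table lay elsewhere in that build (14.4% of entries overlapped the GRCm38 position of their gene), so no position from it is printed. The authors deposited FPKM values pooled over the 3 samples of a genotype, for 25017 entries. The authors' fold changes, test statistics, p-values and significance calls were not used. RNA amplification can alter the representation of transcripts, and FPKM divides by transcript length.

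FPKM was summed per gene name, after 44 entries whose symbol reads as a date were left out. The 9866 genes whose mean reached 1 FPKM were compared, with a pseudocount of 1 FPKM and a threshold of 1.5-fold. With 1 value per genotype no test was run. Whole reads could not be recovered, so depth is unknown. The computation was tested on simulated data. The genes and lists were chosen with earlier results of these data known. Named genes were the 10 highest, the 5 largest differences in each direction, the P stalk and 5S genes, paralog pairs, members next to the limit, members with an entry opposed to the sum, Rps6, Rps19, Rpl22, Rps27a, Rpsa, Fau, Gnb2l1 and Myh9, and the 2 highest of each related list with any past 1.5-fold; Rps24, Rps27l and Mdm2 were added after their values were seen. A further gene of the rule is not reported here. The 11 snoRNA host genes listed were not analysed here. Coding lengths came from GENCODE M21 and promoters from RefSeq. Python 3.11.15, pandas 2.3.3, scipy 1.17.1 and BLAST 2.17.0 were used. Alternatives were other pseudocounts, filters, thresholds, scalings and choices of entry and of members.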

Additional observations from a re-analysis of the deposited data

How the results depend on the processing

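No paired analysis was possible because the table holds 1 pooled value per genotype, and for the same reason the planned runs with a replicate block or without each replicate were not made. Of 127 values computed under alternatives, 119 stayed close to the main value, which meant the same sign, within 0.1 and within 1.5 times for log2 medians and correlations, within 1.5 times for counts and within 10% for levels. No median changed sign, but the medians are small. Upper quartile scaling multiplies every fl/fl value by the same factor. It moved the medians of the 40S body to -0.016, the P stalk to -0.018 and the other 60S genes to -0.014. A mean of at least 5 FPKM moved that of the RNA polymerase I list from 0.069 to 0.114. This limit dropped the only compared gene of that list under it, at 3.54 FPKM on average with a ratio of -0.04. The median ratio of the ribosomal protein genes was below 0 in all 11 settings, from -0.032 when scaled to the total outside these genes to -0.014 with the proteins of the structural groups alone. The other pseudocounts, the limit of 5 FPKM and the choices of entry left it at -0.016. The lowest member stood at 17.5 FPKM in fl/fl, so those pseudocounts and that limit could hardly change it. Such values are counted among the 119 and are no sign of stability. The correlation with coding length lay between 0.38, without members that have 4 or more near-identical copies, and 0.51, with the structural groups alone. No member passed 1.5-fold under the main setting, but 2 entries did when each entry was taken on its own, the second of Rpl19 and the middle of Rps24, and 11 members passed 1.1-fold, a threshold chosen after seeing the data. The share of promoters with a start tract was 18.2%, beside 2.15% of those of other compared genes. CTTTC near the start, a different feature also chosen after seeing the data, was in 27.3%, beside 5.58%. The scalings moved the median of all genes from 0.003 to values between -0.012 and 0.001. Such shifts are not small beside the members' median of -0.016. With the depth unknown and no spread between mice, a difference of the size seen here cannot be set against error.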

Other observations

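Ribosomal proteins are needed in nearly equal numbers, yet a few genes of this family were listed far below the median of 1925 FPKM in wt/fl. Among the proteins with a place in the ribosome the lowest were Rpl30 (58.3 FPKM in wt/fl against 47.8 FPKM in fl/fl), Rpl26 (151 and 138 FPKM), Rps15a (205 and 170 FPKM), Rpl22 (276 and 257 FPKM), Rps3 (474 and 480 FPKM) and Rpl15 (479 and 488 FPKM). Rpl26, Rps3, Rpl15, Rpl21 and Rpl7a were named after their values were seen. Rpl30 and Rpl15 have 6 near-identical copies each and Rpl26 and Rps15a have 4 each, whereas Rpl22 and Rps3 have none. Rpl21, with 16 copies, stood at 564 FPKM in wt/fl, while Rpl7a, with 10 copies, stood at 1961 FPKM, and over 81 members the Spearman correlation of the number of copies with the mean level was -0.01. How reads that match several copies were assigned is not given in the sources used here, and its part in these levels was not tested.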
